A study of Homo sapiens with 16 samples.

Results

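Transcripts of 10 genes of the epidermal growth factor (EGF) family and its receptors were followed in cultured mesenchymal stem cells (MSCs). They were 7 ligand genes (AREG, EREG, EPGN, BTC, HBEGF, TGFA and NRG1) and 3 receptor genes (EGFR, ERBB2 and ERBB3), taken by name from a table of 60649 genes, of which 19103 had enough counts to be tested. All 10 were among the genes tested.

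The cells were ASC52telo, 1 immortalized line of MSCs from human adipose tissue, so the replicates are cultures of a single line. Young MSCs (MmC-/GDF11-) had neither agent. Senescent MSCs (MmC+/GDF11-) had been given 1.5 µg/mL mitomycin C (MmC), an agent that alkylates DNA, for 18 h. The groups MmC-/GDF11+ and MmC+/GDF11+ differed from these by recombinant growth differentiation factor 11 (GDF11, a cytokine of the TGF-beta superfamily) at 10 ng/mL over the 10 days that followed, and RNA was taken from all cultures after those 10 days. Each of the 4 groups had 4 libraries, which the study calls biological replicates, and all 16 carried the same sequencing run number, 73. The comparisons addressed which family members changed with MmC, with GDF11, and with GDF11 differently in young and senescent MSCs.

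EGF family ligands are made as membrane proteins, and metalloproteases of the ADAM family release the soluble factor. AREG, EREG, EPGN, BTC, HBEGF, TGFA and EGF bind EGFR, and several of them also bind ERBB4. The neuregulins, NRG1 among them, bind ERBB3 and ERBB4, while ERBB2 has no known ligand of its own and acts as the partner of the other receptors. Receptor dimers signal through RAS, RAF and MEK to ERK, which switches on early response genes and genes that damp the signal. In MSCs EGFR signalling is known for its part in proliferation and migration, and several of these ligands are counted among the factors that senescent cells secrete.

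Levels are given in CPM, counts scaled to library size by the TMM method. Total counts per library lay between 71275337 and 144204979. The MmC labels were checked on 4 genes that are widely used to mark senescence or proliferation, of which 3 were called in the direction known for senescent cells in both MmC comparisons. CDKN1A, which encodes the cell cycle inhibitor p21, lay between 1075 and 2031 CPM in MmC+/GDF11- and between 181 and 330 CPM in MmC-/GDF11-. LMNB1, the lamin that senescent cells lose, lay between 3.73 and 10.6 CPM against 30.4 to 70.9 CPM. MKI67, a gene of dividing cells, lay between 16.4 and 47.9 CPM against 77.5 to 162.9 CPM. CDKN2A, which encodes the cell cycle inhibitor p16, was not called, with a mean of 1.06 CPM in MmC+/GDF11- and 0.905 CPM in MmC-/GDF11- (log2 fold change 0.23, adjusted p = 0.516, edgeR's quasi-likelihood test). All 6 MSC surface markers examined had counts in every group, with a summed level between 5090 and 6698 CPM over the 16 libraries. The sum hides single markers that moved apart. From young to senescent MSCs the mean went from 1113 to 746 CPM for THY1, 371 to 231 for PDGFRB and 580 to 556 for ENG. It went from 626 to 817 CPM for NT5E, 1048 to 1274 for CD44 and 1891 to 2412.5 for ITGB1. Without GDF11 2 were called higher and 1 lower, beside 22.9% and 22.4% of all genes. With GDF11 it was 3 and 1, beside 23.4% and 23.3%. Of the 5 epithelial markers examined, EPCAM had at most 5 counts and KRT5 at most 2 in any library. Other markers were present, such as KRT14 with a mean of 60.4 CPM in young MSCs. The endothelial marker PECAM1 had a mean of 14.4 CPM in senescent MSCs. The sums of all these lists are given further below. Replicate 1 of MmC+/GDF11- and replicate 1 of MmC+/GDF11+ stood apart from the other MmC+ libraries in many of the genes described here. Both had the lowest level of AREG, EREG, HBEGF, NRG1 and BTC among the 4 libraries of their group, while their CDKN1A levels (2031 and 2007 CPM) were the highest. The study's text mentions batch effects of technical origin without saying which libraries they touched, and the labels name no batch, so whether replicate 1 is one of them cannot be told. Results are therefore given with all libraries and, where it matters, without replicate 1 of every group.

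The genes EPGN, EREG, AREG and BTC are the only 4 annotated protein-coding genes in a stretch of 486.1 kb of chromosome 4. In GENCODE v44 on GRCh38, EPGN (ENSG00000182585.10) lies at chr4:74308470-74316789, EREG (ENSG00000124882.4) at chr4:74365145-74388749 and AREG (ENSG00000109321.11) at chr4:74445136-74455005, all on the plus strand. BTC (ENSG00000174808.12) lies at chr4:74744759-74794523 on the minus strand. HBEGF (ENSG00000113070.8) is on chromosome 5, at chr5:140332843-140346603 on the minus strand. These 5 ligand genes are the ones that rose in both MmC comparisons described below, so their promoter sequences are shown to let the start regions be compared. RefSeq promoter windows of GRCh38.p14 held 8 of the 10 members, and each window has 250 bases before the transcription start and 50 after it. The sequences run 5′ to 3′ on the strand of the gene, at chr4:74308220-74308519 for EPGN, chr4:74364895-74365194 for EREG, chr4:74444886-74445185 for AREG, chr4:74794474-74794773 for BTC and chr5:140346554-140346853 for HBEGF. Capitals mark a match to the TATA box letters TATAAA or to the cyclic AMP response element (CRE) letters TGACGTCA.
EPGN: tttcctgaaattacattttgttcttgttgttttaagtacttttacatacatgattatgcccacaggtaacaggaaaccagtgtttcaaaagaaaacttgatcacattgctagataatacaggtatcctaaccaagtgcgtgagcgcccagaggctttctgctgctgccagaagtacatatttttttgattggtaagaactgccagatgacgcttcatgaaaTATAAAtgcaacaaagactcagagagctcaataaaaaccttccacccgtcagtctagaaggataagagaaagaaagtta
EREG: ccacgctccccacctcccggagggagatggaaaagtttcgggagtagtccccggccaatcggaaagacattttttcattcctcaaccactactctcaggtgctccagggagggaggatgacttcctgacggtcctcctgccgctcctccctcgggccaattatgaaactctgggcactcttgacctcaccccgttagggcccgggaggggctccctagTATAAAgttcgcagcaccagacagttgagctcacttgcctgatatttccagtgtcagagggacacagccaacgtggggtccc
AREG: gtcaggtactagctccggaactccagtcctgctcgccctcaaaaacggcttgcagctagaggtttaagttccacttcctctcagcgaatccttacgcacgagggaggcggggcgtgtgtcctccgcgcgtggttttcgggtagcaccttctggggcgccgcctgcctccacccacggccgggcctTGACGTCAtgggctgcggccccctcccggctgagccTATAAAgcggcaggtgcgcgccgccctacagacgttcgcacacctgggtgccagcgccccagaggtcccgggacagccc
BTC: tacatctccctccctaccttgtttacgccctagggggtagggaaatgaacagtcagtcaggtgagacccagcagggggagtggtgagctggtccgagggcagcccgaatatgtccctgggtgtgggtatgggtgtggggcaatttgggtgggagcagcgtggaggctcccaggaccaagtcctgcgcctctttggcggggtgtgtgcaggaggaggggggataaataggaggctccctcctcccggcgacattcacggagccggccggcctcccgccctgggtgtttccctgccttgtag
HBEGF: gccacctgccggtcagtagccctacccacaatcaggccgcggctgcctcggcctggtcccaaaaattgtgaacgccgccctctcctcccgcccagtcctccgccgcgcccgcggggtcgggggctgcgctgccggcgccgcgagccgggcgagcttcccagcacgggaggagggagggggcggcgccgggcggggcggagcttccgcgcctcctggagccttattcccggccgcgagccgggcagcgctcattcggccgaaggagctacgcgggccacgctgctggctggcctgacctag

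The letters TATAAA began 29 bases before the start in EPGN and in AREG (position -29) and at position -32 in EREG, and were in neither the BTC nor the HBEGF window. Searched on both strands, they were in 11.5% of the 35116 promoter windows of all genes. The CRE letters were in the AREG window alone among the 5, at position -65, and in 1.85% of all windows. The AP-1 letters TGANTCA, in 7.71% of all windows, were in none of the 5, and neither were the kappaB motif (5.91% of all windows) and the CArG box (1.29%), which were searched by their usual degenerate letters. GC box letters, GGGCGG on either strand, were found 5 times in HBEGF, once each in AREG and BTC, and in 45% of all windows. Matches of different motifs did not overlap in these 5 windows, and among matches of 1 motif the HBEGF GC boxes at -63 and -58 shared 1 base. A match describes the letters and is not a measured binding site.

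Amphiregulin, encoded by AREG, showed the widest difference of the family. Its level in the 4 young libraries was 0.923, 1.73, 1.76 and 1.96 CPM. In the 4 senescent libraries it was 11.5, 78.6, 76.5 and 98.8 CPM. The groups did not overlap, and the lowest senescent library, replicate 1, was still above every young one. The mean went from 1.59 ± 0.457 to 66.4 ± 37.9 CPM (SD, n = 4), a ratio of means of 41.7, and the log2 fold change was 5.37 with a standard error of 0.675 (adjusted p = 1.93e-05, edgeR's quasi-likelihood test with Benjamini-Hochberg adjustment over all genes tested). With GDF11 present, AREG stood at 1.57, 1.69, 1.62 and 2.01 CPM without MmC and at 11.8, 69.3, 88.2 and 91.6 CPM with it. That difference was of similar size, with a log2 fold change of 5.24 ± 0.672 (SE, adjusted p = 2.27e-05 by the same edgeR test). In RNA from whole cultures, a change in the share of cells that carry a transcript and a change in its amount per cell cannot be told apart.

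Epiregulin, encoded by EREG, had the highest level in CPM of the ligands in senescent MSCs. The young libraries had 9.08, 12.5, 17.2 and 27.5 CPM, and the senescent libraries 53.1, 254, 297 and 364 CPM. No senescent library reached down to the young range, and the 53.1 CPM again belonged to replicate 1. The log2 fold change was 3.87 ± 0.625 (SE, adjusted p = 1.68e-04, edgeR's quasi-likelihood test), with a ratio of means of 14.6. In the cultures with GDF11, EREG was at 12.7, 14.8, 12.2 and 24.0 CPM without MmC and at 50.7, 259, 319 and 346 CPM with MmC, a log2 fold change of 3.93 ± 0.627 (SE, adjusted p = 1.48e-04 by the edgeR test).

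HBEGF encodes heparin-binding EGF-like growth factor, which binds EGFR and ERBB4. It was detected at 2.38, 4.32, 4.09 and 3.84 CPM in young MSCs and at 7.87, 33.9, 29.2 and 24.7 CPM in senescent MSCs. The ranges were apart, and replicate 1 was the lowest library in both groups. The log2 fold change was 2.71 ± 0.431 (SE, adjusted p = 1.48e-04, edgeR's quasi-likelihood test). With GDF11, HBEGF went from 3.59, 4.29, 3.71 and 4.12 CPM to 7.62, 27.9, 31.4 and 20.8 CPM, a log2 fold change of 2.48 ± 0.427 (SE, adjusted p = 2.79e-04 by the edgeR test).

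**Figure D1:**
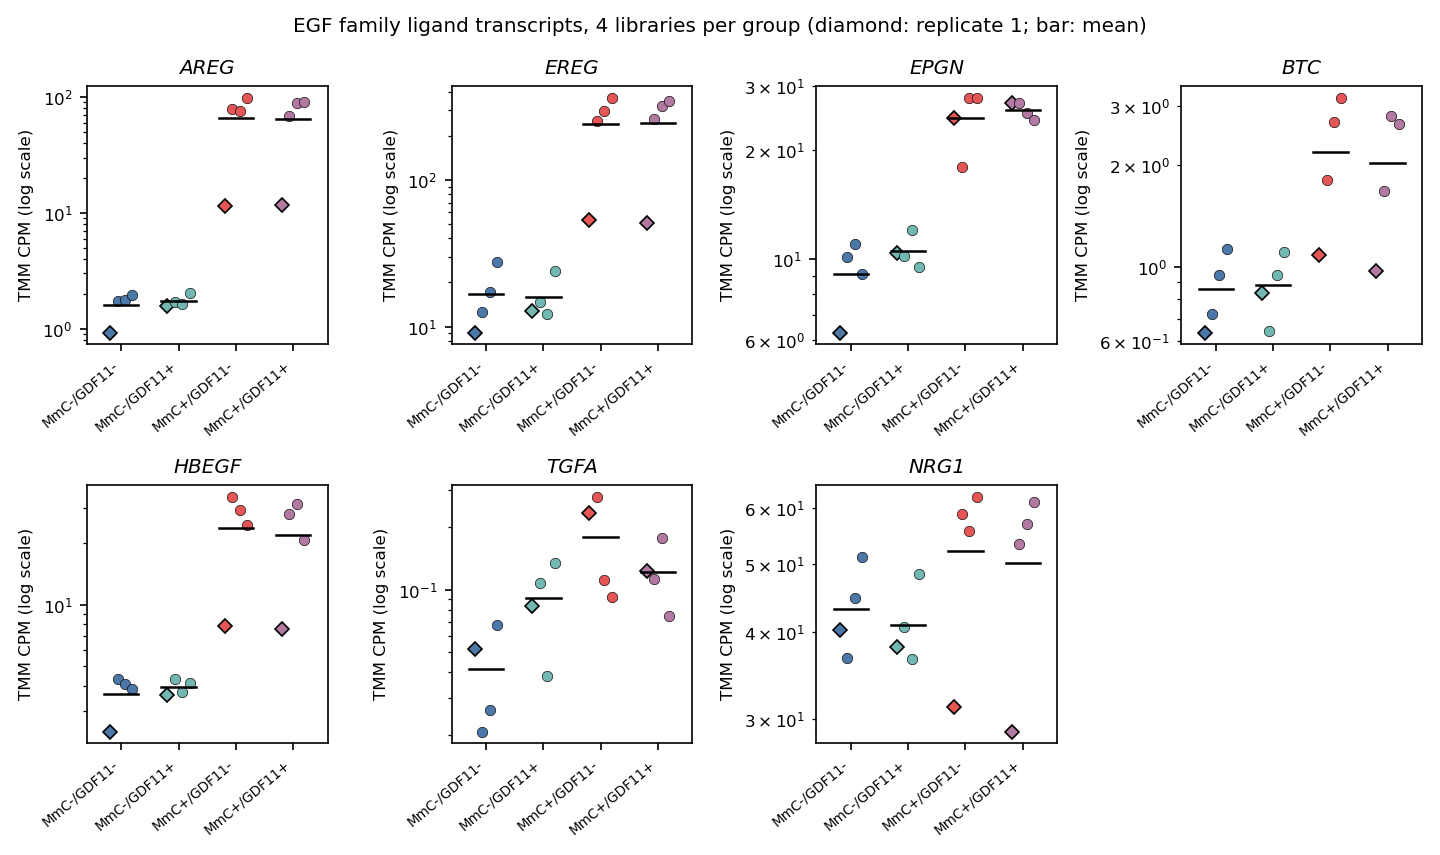
CPM of the 7 ligand genes (y axis, log scale) in each library of the 4 groups (x axis), with diamonds for replicate 1, circles for the other replicates and a bar at the group mean. For AREG, EREG and HBEGF both diamonds of the MmC+ groups lie between the MmC- libraries and the other MmC+ libraries, whereas for EPGN the MmC+ diamonds (24.6 and 26.95 CPM) lie among the others.

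Epigen, encoded by EPGN, binds EGFR and is the first gene of the chromosome 4 cluster. It stood at 6.28, 10.1, 11.0 and 9.12 CPM in young MSCs and at 24.6, 18.0, 27.9 and 27.8 CPM in senescent MSCs. Replicate 1 of MmC+/GDF11- was not low here. The log2 fold change was 1.43 with a standard error of 0.161 (adjusted p = 4.89e-06, edgeR's quasi-likelihood test), a smaller change than that of AREG with a smaller error. Between libraries of the same number the ratio with MmC to without it was 3.92 for number 1 and 1.77 to 3.05 for the others, so that number 1 moved most. With GDF11, EPGN rose from 10.4, 10.2, 12.1 and 9.55 CPM to 26.95, 26.92, 25.35 and 24.2 CPM, by 1.29 ± 0.161 on the log2 scale (SE, adjusted p = 1.23e-05 by the edgeR test).

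Betacellulin, encoded by BTC and a ligand of EGFR and ERBB4, had low levels throughout. Young MSCs had 0.637, 0.725, 0.944 and 1.13 CPM, and senescent MSCs 1.08, 1.81, 2.68 and 3.17 CPM. The ranges overlapped, since replicate 1 of the senescent group fell below the highest young library. BTC was called higher without GDF11 (log2 fold change 1.34 ± 0.349, SE, adjusted p = 0.00529, edgeR's quasi-likelihood test). With GDF11, where it went from 0.834, 0.644, 0.946 and 1.11 CPM to 0.971, 1.68, 2.80 and 2.65 CPM, the log2 fold change was 1.2 ± 0.349 (SE, adjusted p = 0.0101 by the edgeR test). That second call was lost when replicate number 2 or replicate number 3 was left out of every group, with an adjusted p of up to 0.0914 by the same edgeR test.

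Transforming growth factor alpha, encoded by TGFA, was close to the limit of detection. Young libraries had 4, 2, 2 and 7 counts and senescent libraries 23, 24, 10 and 8 counts, out of 71275337 or more counts in each library. The summed counts of 15 and 65 correspond to a ratio of 4.15 of senescent to young, with an exact binomial 95% interval from 2.34 to 7.84 that covers counting error only. In edgeR's quasi-likelihood test TGFA was called higher without GDF11, by 2.05 ± 0.496 on the log2 scale (SE, adjusted p = 0.00318). The call was lost without replicate number 2 (adjusted p = 0.0635 by the edgeR test). With GDF11 the counts were 6, 8, 3 and 12 in MmC- and 9, 11, 26 and 7 in MmC+ cultures, the log2 fold change was 0.43 ± 0.460 and TGFA was not called (adjusted p = 0.463 by the edgeR test).

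Neuregulin 1, encoded by NRG1 (ENSG00000157168.20, chr8:31639222-32855666, plus strand), is the member that signals through ERBB3 and ERBB4 and not through EGFR. Its levels were 40.2, 36.7, 44.7 and 51.1 CPM in young MSCs and 31.2, 58.9, 55.7 and 62.3 CPM in senescent MSCs. The senescent group held both the lowest library, replicate 1, and the highest. NRG1 did not pass the test without GDF11 (log2 fold change 0.27 ± 0.223, SE, 95% interval -0.20 to 0.75, adjusted p = 0.344, edgeR's quasi-likelihood test) or with GDF11 (0.29 ± 0.224, SE, adjusted p = 0.298). Without replicate 1 of every group it was called higher in both comparisons, by 0.42 (adjusted p = 0.0118) and by 0.45 (adjusted p = 0.00705 by the same edgeR test), so the outcome for NRG1 rests on those libraries.

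EGFR (ENSG00000146648.20, chr7:55019017-55211628, plus strand), the receptor of 6 of the 7 ligands, was the most abundant member in CPM in young MSCs. It stood at 182, 146, 212 and 223 CPM in young MSCs and at 261, 239, 247 and 290 CPM in senescent MSCs. The ranges were apart by a narrow margin, 223 against 239 CPM. The log2 fold change was 0.44 ± 0.140 (SE, adjusted p = 0.0171, edgeR's quasi-likelihood test). With GDF11 the levels were 171, 170, 173 and 223 CPM without MmC and 216, 238, 261 and 304 CPM with MmC, and the ranges overlapped (log2 fold change 0.47 ± 0.140, SE, adjusted p = 0.0119 by the edgeR test). Without replicate number 3 the call was lost in both comparisons (adjusted p = 0.0783 and 0.0884 by the edgeR test), and without GDF11 it was also lost when replicate 2 of MmC-/GDF11-, or replicate number 2 of every group, was left out.

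ERBB2 (ENSG00000141736.14, chr17:39687914-39730426, plus strand), the receptor without a ligand of its own, was lower after MmC. Young libraries had 102, 98.0, 85.5 and 97.2 CPM, and senescent libraries 92.5, 65.3, 56.3 and 54.6 CPM. Only replicate 1 of the senescent group lay within the young range. ERBB2 fell by 0.51 on the log2 scale (SE 0.176, adjusted p = 0.0267, edgeR's quasi-likelihood test) and, with GDF11, by 0.55 (SE 0.177, adjusted p = 0.0186), where the levels were 90.4, 109, 88.6 and 91.6 CPM without MmC and 92.2, 58.7, 54.6 and 55.0 CPM with it. Without replicate 1 of every group it fell by 0.67 (adjusted p = 9.56e-05) and by 0.78 (adjusted p = 2.49e-05, both by the edgeR test). The call did not hold when other single libraries or numbers were left out, in 9 of 21 alternatives without GDF11 and in 7 of 21 with it, with an adjusted p of up to 0.172. Of the exonic bases of ERBB2, 5.53% also lie in MIEN1 and 1.4% in PGAP3, both on the opposite strand, and the strand setting of the counting is not given in the sources used here.

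ERBB3 (ENSG00000065361.17, chr12:56076799-56103505, plus strand), a receptor of neuregulins with little kinase activity of its own, had the clearest fall of the family. It stood at 9.91, 7.19, 6.45 and 7.33 CPM in young MSCs and at 1.86, 1.06, 1.11 and 1.23 CPM in senescent MSCs. The groups were far apart, and the highest senescent library was again replicate 1. ERBB3 fell by 2.55 on the log2 scale (SE 0.245, adjusted p = 1.00e-06, edgeR's quasi-likelihood test). With GDF11 it was at 10.2, 7.38, 7.85 and 7.64 CPM without MmC and at 1.39, 1.22, 0.600 and 1.01 CPM with it, a fall of 2.98 (SE 0.250, adjusted p = 3.12e-07 by the edgeR test).

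**Figure D2:**
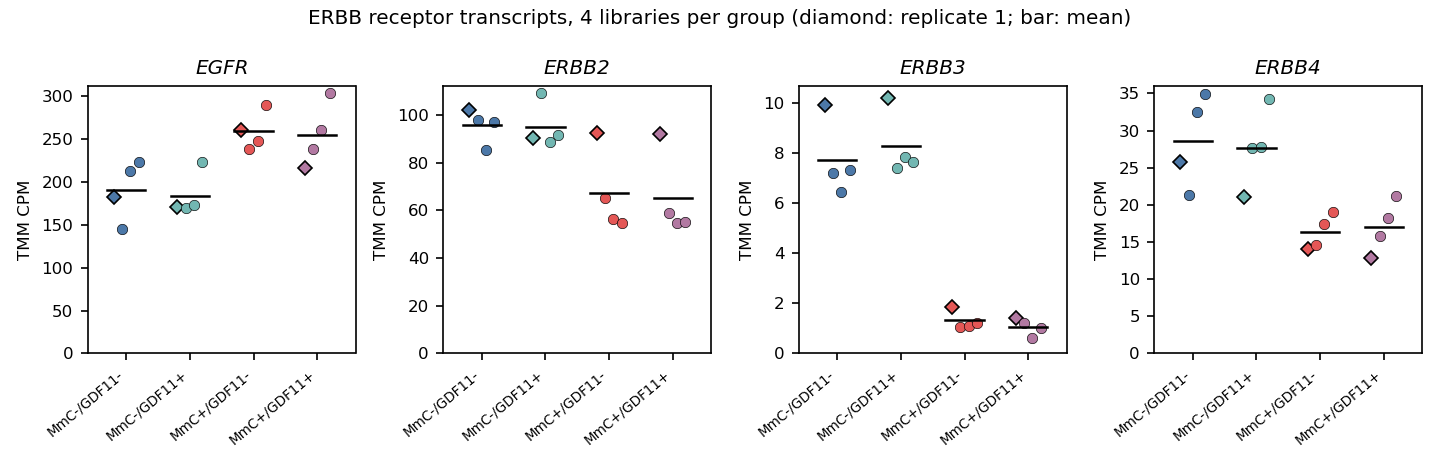
CPM of EGFR, ERBB2, ERBB3 and ERBB4 (y axis, linear from 0) in each library of the 4 groups (x axis), with diamonds for replicate 1, circles for the other replicates and a bar at the group mean. The MmC+ libraries of ERBB3 lie at or under 1.86 CPM and all MmC- libraries at or over 6.45 CPM, while the ERBB2 diamonds of the MmC+ groups (92.5 and 92.2 CPM) lie at the MmC- level.

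Counted over the family, 9 of the 10 members were called in the comparison of MmC+/GDF11- with MmC-/GDF11-, 7 higher and 2 lower, at an adjusted p under 0.05. Of all genes tested, 45.3% were called in that comparison, 22.9% higher and 22.4% lower. With GDF11 present 8 members were called, 6 higher and 2 lower, where 46.7% of all genes were called, 23.4% higher and 23.3% lower. Since close to every other gene was called, the number of members called says little by itself, and the sizes of the changes carry more. The members were, however, chosen with earlier results of these data known. The median absolute log2 fold change of the 7 ligands, without regard to direction, was 2.05 without and 1.29 with GDF11, beside 0.41 and 0.42 over all genes tested. For the 3 receptors it was 0.51 and 0.55. The ligand median is the value of TGFA without GDF11 and of EPGN with it. TGFA, which had few counts, was at 2.05 without and 0.43 with GDF11, while the estimates of the other ligands were similar in both comparisons. An absolute log2 fold change above 1 was found for 6 ligands without and 5 with GDF11, and for 18.5% and 18.8% of all genes. The ranges of the 4 and 4 libraries did not overlap for 7 members without GDF11, where 37.3% of all genes had ranges apart, and for 5 members with GDF11, where it was 41.5% of all genes. Without replicate 1 of every group, all 10 members were called without GDF11 (51.7% of all genes) and 9 with GDF11 (52.6% of all genes), TGFA being the exception.

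**Figure D3:**
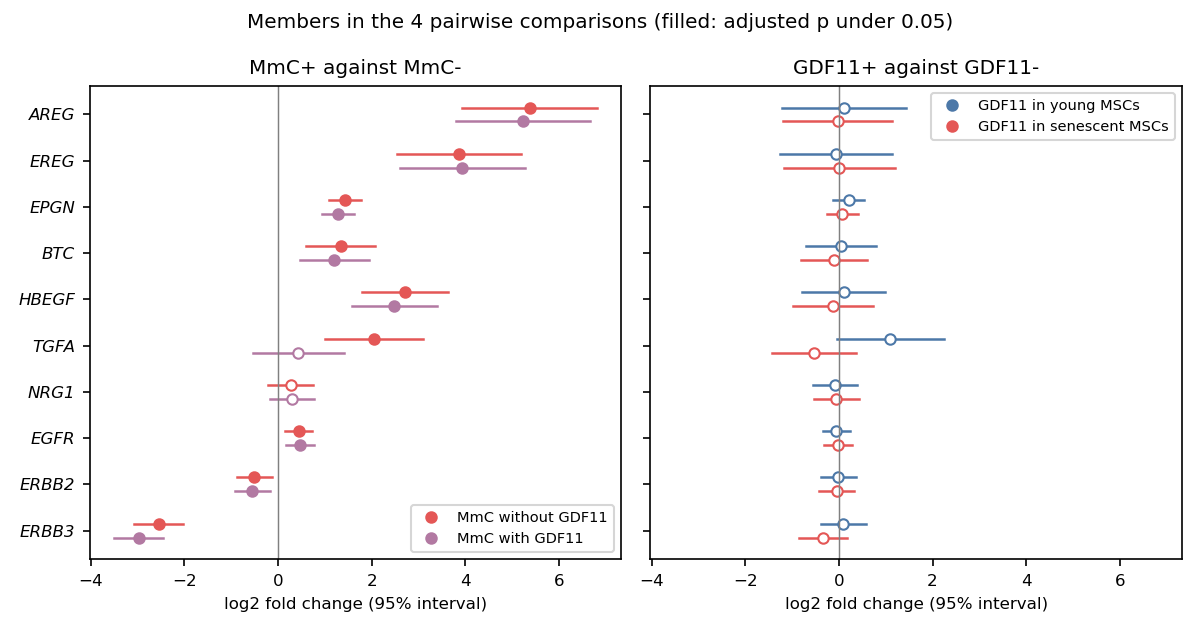
Log2 fold change of each member with its 95% interval (x axis) for MmC+ against MmC- (left) and GDF11+ against GDF11- (right), with filled circles for members called by edgeR's test at 0.05. On the left the filled circles of 6 ligands and EGFR lie right of 0 and those of ERBB2 and ERBB3 left of it without GDF11, and on the right every interval includes 0.

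Libraries of the same replicate number without GDF11 were taken as pairs, which is an assumption, and the size of the change was read in each. AREG was 12.5 times as high with MmC as without it in the libraries numbered 1 and between 43.5 and 50.5 times as high in the other 3 pairs without GDF11. For EREG these ratios were 5.85 for number 1 and 13.2 to 20.3 for the others, and for HBEGF 3.31 and 6.43 to 7.86. Every pair moved in the same direction for these 3 ligands, and number 1 moved least. With GDF11, where the numbers were not taken to pair the libraries, those numbered 1 had ratios of 7.51 for AREG, 3.98 for EREG and 2.12 for HBEGF. Without replicate 1, the log2 fold change of AREG was 5.54 ± 0.155 (SE, adjusted p = 8.84e-12, edgeR's quasi-likelihood test), with a smaller standard error than the 0.675 over all libraries.

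Levels can be compared between genes only per length, so CPM were divided by the exonic length of each gene in kb. That length joins the exons of all annotated transcripts of a gene, from 1642 bases for AREG to 21372 for NRG1. It can exceed the length of any single transcript, so the order of genes depends in part on the annotation. On this scale the highest members in young MSCs were EGFR (12.0 ± 2.19 CPM per kb, SD, n = 4) and ERBB2 (9.27 ± 0.698). EREG (2.90 ± 1.40), EPGN (2.77 ± 0.624) and NRG1 (2.02 ± 0.291) followed, and their ranges over the 4 libraries overlapped, so their order is not settled. HBEGF (1.22 ± 0.292) overlapped AREG (0.969 ± 0.278), which in turn overlapped ERBB3 (0.659 ± 0.129). BTC (0.323 ± 0.0834) was lower than these, and TGFA was at 0.00846 ± 0.00447 CPM per kb.

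In senescent MSCs the order per length was different. EREG (42.4 ± 23.4 CPM per kb, SD, n = 4) and AREG (40.4 ± 23.1) had the highest means and overlapped each other and EGFR (16.2 ± 1.40). HBEGF (8.00 ± 3.79), EPGN (7.45 ± 1.42) and ERBB2 (6.51 ± 1.70) overlapped one another. NRG1 was at 2.44 ± 0.661, BTC at 0.823 ± 0.348, ERBB3 at 0.112 ± 0.0318 and TGFA at 0.0364 ± 0.0186. In replicate 1 of MmC+/GDF11-, EREG (9.30 CPM per kb) and AREG (7.03) lay under the EGFR range of that group, whose lowest library had 15.0.

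The 7 ligands summed to between 6.98 and 12.9 CPM per kb in the young libraries and to between 28.3 and 145 in the senescent libraries. AREG and EREG together made up 30.8% to 46.6% of that sum in young MSCs and 57.6% to 85.6% in senescent MSCs. The 3 receptors summed to 19.2 to 24.0 and to 21.1 to 25.5 CPM per kb, ranges that overlap. Within the receptor sum, EGFR took 47.5% to 60.1% in young MSCs and 64.2% to 77.1% in senescent MSCs, while ERBB3 took 2.49% to 3.82% and 0.423% to 0.625%. These sums and shares depend on the exonic lengths used. The shares are descriptions of each library and were not tested.

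The addition of GDF11 was followed by no called change in any member. Comparing MmC-/GDF11+ with MmC-/GDF11-, edgeR's quasi-likelihood test called 0% of all genes, and 226 genes and none of the 10 members had an unadjusted p under 0.05. In senescent MSCs it also called 0% of all genes, with 96 genes and no member at an unadjusted p under 0.05. For the test of whether GDF11 acted differently in young and senescent MSCs (the interaction) the called share was again 0%, with 172 genes and 1 member, TGFA, at an unadjusted p under 0.05. No member had ranges apart in either comparison, against 0.890% of all genes in young and 0.503% in senescent MSCs.

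The errors of these comparisons set what could be seen. For EGFR the 95% interval of the log2 fold change with GDF11 ran from -0.35 to 0.24 in young and from -0.32 to 0.27 in senescent MSCs, and for ERBB2 from -0.38 to 0.36 and from -0.42 to 0.33. Intervals this narrow leave room only for changes of EGFR and ERBB2 well under a log2 fold change of 1. That of AREG was much wider in young MSCs, from -1.2 to 1.43, so a change by a log2 fold change of 1 in either direction would not have been told from none there. In senescent MSCs it ran from -1.19 to 1.14 without a block and from -0.86 to 0.83 with the replicate number as a block. That block was fitted to all 16 libraries with a shared effect for each number, so its interval does not come from the senescent pairs alone. The numbers were taken to pair the senescent libraries, and no interval was computed from those pairs by themselves. AREG with GDF11 was 0.882 to 1.15 times the level without it in the 4 senescent pairs, and EREG 0.951 to 1.07 times. ERBB3 had the only interval of a member in senescent MSCs that did not include 0 under the block, with a log2 fold change of -0.33 (95% interval -0.66 to -0.0047), and it was not called (adjusted p = 0.99986 by the edgeR test). TGFA, with few counts, had a log2 fold change of 1.09 (95% interval -0.05 to 2.24) in young and -0.53 (-1.42 to 0.37) in senescent MSCs. Its interaction estimate was -1.62 ± 0.685 (SE, unadjusted p = 0.0308, adjusted p = 0.99994 in edgeR's test), on 15 to 65 summed counts per group.

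Members of the family outside the 10 were read from the same table. EGF, the ligand that gave the family its name, was at 3.30, 2.78, 3.18 and 2.89 CPM in young and at 2.71, 1.48, 1.72 and 1.78 CPM in senescent MSCs. It fell by 0.66 on the log2 scale without GDF11 (adjusted p = 0.0108, edgeR's quasi-likelihood test) and by 0.54 with GDF11 (adjusted p = 0.0288), the opposite direction to the 6 ligands above. Its calls were lost in 3 and 10 of the alternatives, among them without replicate number 2, 3 or 4 (adjusted p of up to 0.108 and 0.175 by the edgeR test). ERBB4, the remaining receptor, was at 25.8, 21.4, 32.5 and 34.9 CPM in young and at 14.0, 14.6, 17.5 and 19.1 CPM in senescent MSCs, ranges that were apart. ERBB4 fell by 0.81 (adjusted p = 0.00199) and by 0.70 with GDF11 (adjusted p = 0.00534 by the edgeR test). The neuregulin gene NRG2 did not pass the test (log2 fold change -0.37, adjusted p = 0.287, and -0.41 with GDF11, adjusted p = 0.239 by the edgeR test). NRG3 had 0 to 3 counts and NRG4 0 to 9 counts per library, too few to be tested, and 38.2% of the exonic bases of NRG4 also lie in FBXO22 on the opposite strand. Of the 4 receptor genes, then, EGFR was called higher and ERBB2, ERBB3 and ERBB4 were called lower in both MmC comparisons.

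The chromosome 4 cluster was looked at together with its surroundings, in a window of 500 kb to either side that was chosen after the values were seen. It held 16 tested genes, of which 14 were called in each MmC comparison, 13 of them higher, where 45.3% and 46.7% of all genes were called, 22.9% and 23.4% higher. The other called genes included the chemokine genes CXCL6 (log2 fold change 6.23 without GDF11, 95% interval 5.84 to 6.62, adjusted p = 2.83e-12, edgeR's quasi-likelihood test), CXCL1 and CXCL5, which attract neutrophils. These changes were larger than those of EPGN and BTC at the 2 ends of the ligand cluster. MTHFD2L, a gene of folate metabolism and the nearest protein-coding gene before EPGN, was not called (0.32, 95% interval -0.24 to 0.88, adjusted p = 0.343 by the edgeR test). On the other side PARM1, the nearest tested gene after BTC, was called higher (5.58, 95% interval 4.62 to 6.54, adjusted p = 2.50e-07 by the edgeR test). Within the cluster the change was largest for AREG and EREG in the middle, and the intervals of AREG (3.94 to 6.81) and EPGN (1.09 to 1.77) did not meet.

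**Figure D4:**
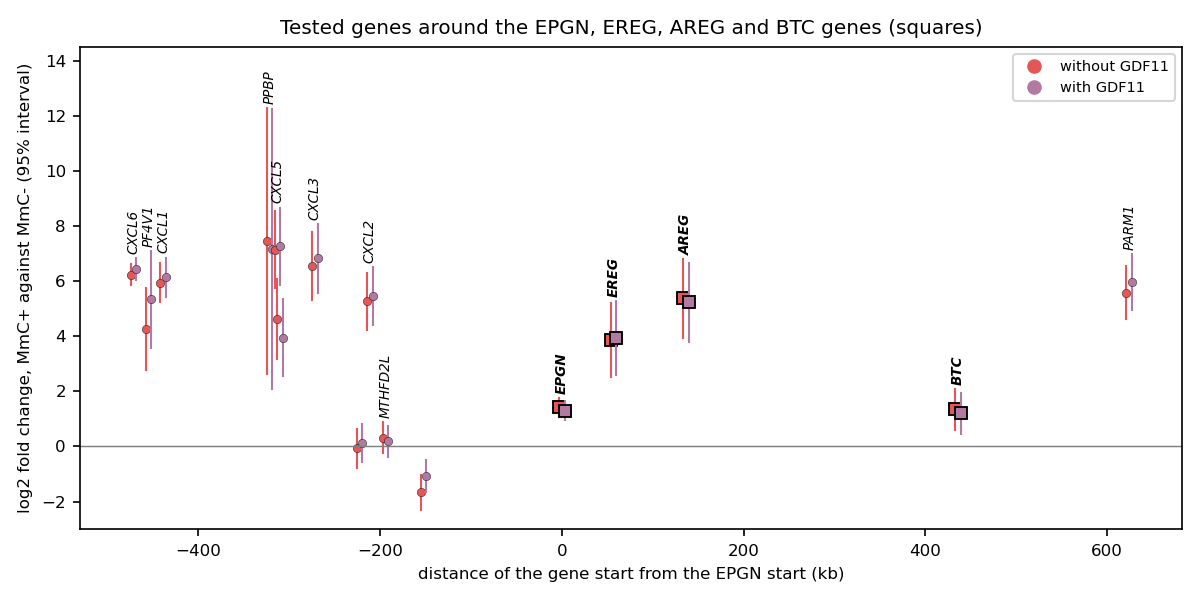
Log2 fold change of MmC+ against MmC- with its 95% interval (y axis) for the 16 tested genes around the cluster, against the distance of the gene start from the EPGN start in kb (x axis), with squares for EPGN, EREG, AREG and BTC. Among the squares AREG, at 136.7 kb, is highest, and MTHFD2L at -194.3 kb lies near 0. The 3 unlabelled genes have no symbol.

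The genes of the pathway around the receptors were taken from 5 lists, which were chosen with earlier results of these data known. Their counts beside the shares of all genes are therefore descriptions and no test of the lists. For ligand release (10 genes: proteases, their partners and an inhibitor) 3 were higher and 2 lower in each MmC comparison, a share called close to the 45.3% and 46.7% of all genes. RHBDF2, which brings the protease ADAM17 to the cell surface, rose from 1.80 to 3.596 CPM without GDF11 (log2 fold change 1.00, adjusted p = 0.0264, edgeR's quasi-likelihood test), and replicate 1 was its highest MmC+ library at 6.34 CPM. Without that library its log2 fold change was 0.59 and the call was lost (adjusted p = 0.122 by the edgeR test), and in all its call was lost in 6 of 21 alternatives without and 8 with GDF11. TIMP3, an inhibitor of ADAM17 and other metalloproteases, rose from 604 to 1040 CPM (0.78, adjusted p = 3.94e-04). The proteases ADAM12 (243 to 140 CPM) and ADAM19 (26.6 to 15.7 CPM) fell by 0.80 and 0.76 (adjusted p = 6.55e-04 and 0.00578 by the edgeR test), and the call of ADAM19 was lost without replicate number 3 (adjusted p = 0.0517). ADAM17 itself, the main sheddase of AREG, EREG, HBEGF and TGFA, was not called (log2 fold change 0.26, 95% interval 0.02 to 0.50, adjusted p = 0.0744), and neither was ADAM10, the main sheddase of BTC and EGF (0.25, adjusted p = 0.169 by the edgeR test). With the replicate number as a block both were called higher (adjusted p = 0.00303 for ADAM17 and 0.00803 for ADAM10 by the edgeR test). ADAM17 was called higher without GDF11 in 4 of 21 alternatives. The others were upper-quartile scaling, at least 10 counts in every library, and leaving out replicate 1 of MmC+/GDF11-. ADAM17 and ADAM10 were chosen after their values were seen.

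Of 8 genes whose products attenuate ERBB receptors, 4 were higher and 1 was lower in each MmC comparison, beside 22.9% higher and 22.4% lower of all genes without GDF11 and 23.4% and 23.3% with it. LRIG1, a membrane protein that promotes the breakdown of ERBB receptors, rose from 32.8 to 86.9 CPM (log2 fold change 1.41, adjusted p = 2.64e-06, edgeR's quasi-likelihood test), and its senescent libraries (103, 91.8, 80.5 and 72.4 CPM) were all above the young ones. Of its exonic bases 37.9% also lie in SLC25A26 on the opposite strand. The ubiquitin ligase gene CBLB rose from 24.1 to 62.5 CPM (1.37, adjusted p = 0.001001) and ERRFI1, whose product inhibits the EGFR kinase, from 73.3 to 173 CPM (1.24, adjusted p = 0.0195 by the edgeR test). ERRFI1 in replicate 1 of the senescent group, at 70.5 CPM, lay within the young range, and the call of ERRFI1 was lost in 6 of 21 alternatives without and 5 with GDF11, such as without replicate number 2, 3 or 4 (adjusted p of up to 0.128 by the edgeR test). LRIG3 went the other way, from 32.4 to 15.8 CPM, and fell by 1.04 on the log2 scale (adjusted p = 0.00262). With GDF11 its call was lost without replicate number 3 (adjusted p = 0.0602 by the edgeR test).

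Of 8 ERK feedback genes 5 were higher without GDF11 and 6 with it, where 22.9% and 23.4% of all genes were higher, and none was lower. Without replicate 1 of every group 6 were higher and 1 lower without GDF11, the lower one being SPRY1 (log2 fold change -0.51, adjusted p = 0.0343, edgeR's quasi-likelihood test), which was chosen after its values were seen. DUSP6, a phosphatase that inactivates ERK, was at 11.2, 16.6, 15.0 and 18.8 CPM in young and at 24.3, 72.8, 79.7 and 96.4 CPM in senescent MSCs (log2 fold change 2.15, adjusted p = 0.00123, edgeR's quasi-likelihood test). As for AREG, replicate 1 was the lowest senescent library and still above the young range. DUSP4, SPRY4 and DUSP5, further dampers of ERK signalling, rose by 1.902, 1.65 and 1.04 on the log2 scale (adjusted p = 1.81e-04, 2.62e-04 and 0.00486 by the edgeR test). An RNA gene without a symbol covers 28.6% of the exonic bases of DUSP6 on the opposite strand.

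Of 11 ERK-responsive genes 6 were higher and none lower in each MmC comparison, beside 22.9% and 23.4% of all genes higher. EGR2, an early response transcription factor, was at 0.546, 0.725, 0.747 and 0.260 CPM in young and at 2.41, 11.6, 10.5 and 10.8 CPM in senescent MSCs (log2 fold change 3.96, adjusted p = 1.32e-04, edgeR's quasi-likelihood test). ETV4, a transcription factor of the ETS family, rose from 7.12 to 25.7 CPM (1.85, adjusted p = 0.00257), and PHLDA1 from 138 to 411 CPM (1.58, adjusted p = 0.00893), where replicate 1 (140 CPM) lay within the young range and the call was lost without replicate number 2 or 3 (adjusted p of up to 0.0764 by the edgeR test). IER3, an early response gene that modulates ERK and survival signalling, rose from 3.52 to 40.4 CPM (3.52, adjusted p = 1.47e-05 by the edgeR test), but 97.7% of its exonic words of 31 bases also lie on alternate contigs of the genome, so its count depends on how reads aligned there were treated.

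The 17 signal transducers between receptor and ERK showed no common direction, with 3 higher and 5 lower without GDF11 and 3 higher and 3 lower with it. Of all genes 22.9% were higher and 22.4% lower without GDF11, and 23.4% and 23.3% with it. NRAS fell by 0.87 on the log2 scale (101 to 55.6 CPM, adjusted p = 7.48e-05, edgeR's quasi-likelihood test), MAPK3, which encodes ERK1, fell by 0.44 (adjusted p = 0.0134, lost in 5 of 21 alternatives) and with GDF11 by 0.36 (adjusted p = 0.0342, lost in 12 of 21), and the kinase genes MAP2K1 and BRAF rose by 0.60 and 0.58 (adjusted p = 8.73e-05 and 0.00460 by the edgeR test). The lowest point of this list is HRAS, whose exonic words lie to 100% on alternate contigs, and it is named only for that reason. HRAS ran from 0.424 to 21.3 CPM within the young libraries, while its mean was 0.348 CPM in MmC-/GDF11+ and 0.719 CPM in senescent MSCs. Its low point therefore rests on high values in part of the young libraries. The median log2 fold changes without GDF11 were 0.20 for ligand release, 0.58 for the attenuators, 0.82 for ERK feedback, -0.01 for the transducers and 0.86 for ERK-responsive genes, beside -0.01 for all genes, a value that the scaling holds near 0. Over these lists and the 5 further family genes, 21 of 57 tested genes were higher and 10 lower without GDF11, and 22 higher and 8 lower with it. These counts stand beside 45.3% and 46.7% of all genes called, in the shares higher and lower given above. None was called for GDF11 in either kind of MSC, as for all genes. Without replicate 1 of every group the numbers higher and lower without GDF11 were 3 and 2 for ligand release, 4 and 1 for the attenuators, 6 and 1 for ERK feedback, 3 and 5 for the transducers and 6 and 0 for ERK-responsive genes, while 26.2% of all genes were then higher.

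**Figure D5:**
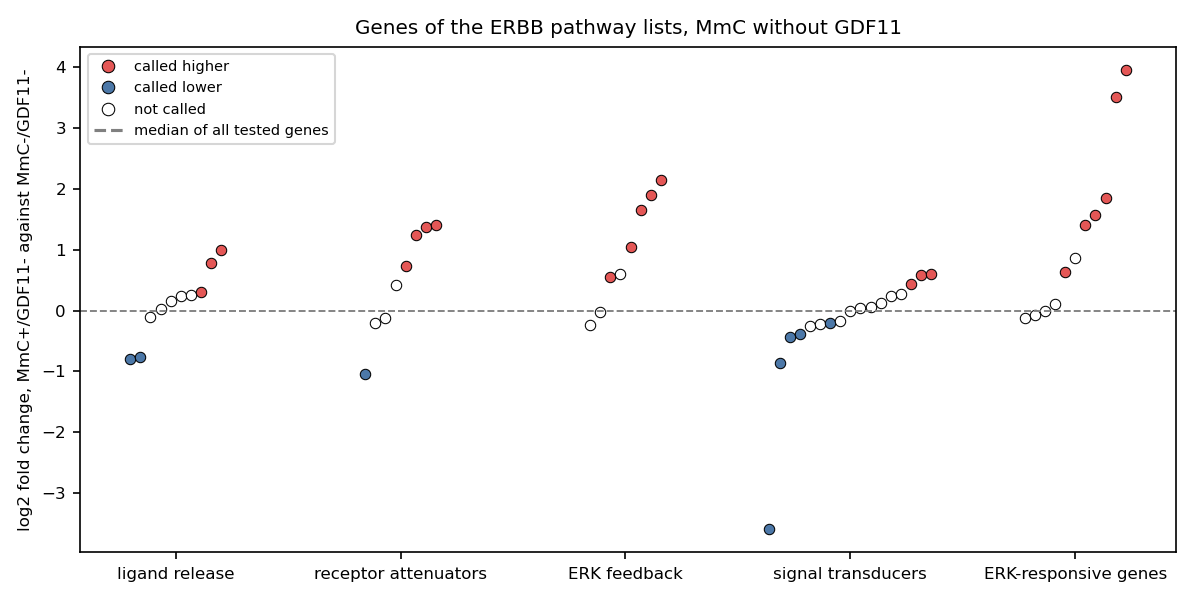
Log2 fold change of MmC+/GDF11- against MmC-/GDF11- (y axis) for the genes of the 5 pathway lists (x axis, 1 circle per gene, ordered by value within a list), with red for genes called higher, blue for genes called lower, white for genes not called and a dashed line at the median of all genes tested. The ERK feedback and ERK-responsive lists hold red circles and no blue ones, and the low point among the transducers is HRAS.

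Markers of other cell types were set beside these changes. The 4 endothelial markers summed to between 7.82 and 11.3 CPM in young MSCs and to between 17.1 and 21.1 CPM in senescent MSCs apart from replicate 1, which had 8.66 CPM. So the sum was high in the same libraries as AREG and EREG. The sum was mostly PECAM1 (6.20, 7.56, 5.22 and 4.89 CPM against 5.86, 18.4, 18.3 and 15.0 CPM), while CDH5 fell from 2.42 to 0.850 CPM and KDR, a defining receptor of endothelial cells, was at or near 0 with at most 0.221 CPM in any library. In MmC+/GDF11+ the endothelial sum lay between 16.1 and 21.8 CPM apart from replicate 1 with 8.44 CPM, and in MmC-/GDF11+ between 8.13 and 11.1 CPM. Of the 4 markers PECAM1, VWF and KDR were called higher and CDH5 lower without GDF11. The 5 epithelial markers summed to between 48.8 and 82.5 CPM in young and to between 15.2 and 17.9 CPM in senescent MSCs, nearly all of it KRT14, which fell from 60.4 to 15.8 CPM, the direction in which ERBB3 moved. With GDF11 this sum was between 50.0 and 77.2 CPM without MmC and between 12.6 and 21.0 CPM with it. Of the exonic words of 31 bases of KRT14, 42.2% also occur elsewhere on the chromosomes. The KRT14 count therefore depends on how reads aligned to several places were treated. The 4 blood cell markers summed to at most 5.36 CPM in any library, with CD3E at 0 in every MmC- library. This sum was also higher with MmC, between 2.45 and 5.36 CPM in senescent against 1.64 and 2.68 CPM in young MSCs, and between 2.76 and 5.13 CPM against 1.61 and 2.36 CPM with GDF11. Of its 2 tested markers, CD14 was called higher in both MmC comparisons and PTPRC in that with GDF11. The highest sum in each MmC+ group was that of replicate 1, where AREG and EREG were lowest. The part of these other transcripts in the changes of the members was not tested.

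For each member with a mean of at least 1 CPM, the genes nearest to it in pattern were found by the root mean square difference of centred log2 CPM over the 16 libraries, among 11665 protein-coding genes. This describes likeness in these libraries and nothing more. AREG was nearest to PTGS2, with a difference of 0.33, followed by RASD1 (0.35) and TFPI2 (0.36), where the median gene differed from it by 2.68. EREG was nearest to PDE4D (0.38) and PTHLH (0.40), and HBEGF to KCNJ15 (0.23), FZD8 (0.28) and FOSB (0.29). EPGN was nearest to TFPI (0.18) and BTC to ADAMTS6 (0.21). Among the receptors, the nearest genes were RAPGEF2 for EGFR (0.05), EVI5L for ERBB2 (0.08) and TOX for ERBB3 (0.26), and for NRG1 it was NOLC1 (0.08). The measure is not scaled, so a gene that varies little is near to many others. The values of each member around its own mean had a root mean square of 2.64 for AREG, 2.03 for EREG, 1.35 for HBEGF and 1.43 for ERBB3, but only of 0.72 for EPGN, 0.75 for BTC and 0.29 to 0.36 for NRG1, EGFR and ERBB2, and each difference is to be read against these. Between members, AREG and EREG differed by 0.68, well under the variation of either, while NRG1 and EGFR differed by 0.28, about as much as they varied themselves.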

How the data were processed

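Poly(A) RNA of ASC52telo MSCs was sequenced in 16 libraries. Labels gave the group and replicate number of each library. The authors aligned reads to GRCh38/hg38 with HISAT2 2.2.1, counted them on GENCODE genes with featureCounts 2.0.1 and deposited raw counts per gene, without normalization. Pair counting, strand setting and the treatment of reads aligned to several places are not given in the sources used here. The kit was directional. Such settings could shift counts of overlapping genes.

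The analysis used edgeR 4.0.16 under R 4.3.3. The filter filterByExpr kept the genes tested (minimum count 10, minimum total 15). Scaling was by TMM, and a robust quasi-likelihood model with a mean for each group was fitted to all 16 libraries. P-values were adjusted by Benjamini-Hochberg over 19103 genes and called under 0.05. Fitted log2 fold changes used a prior count of 0.125, and log2 CPM in the likeness of patterns and the pairing check a prior count of 2. Dixon's criterion used log2(CPM + 0.01). The steps were tested on simulated data. Symbols, positions and exonic lengths came from GENCODE v44 on hg38, where 142 identifiers had no match, and promoters from RefSeq (GRCh38.p14). Total counts of 71275337 to 144204979 give narrow counting error for most members. TGFA, NRG3 and NRG4 had few counts, as did the markers EPCAM, KRT5, CD3E and KDR. In the MmC- libraries EGR2 had 18 to 70 counts and DUSP4 26 to 55, so their counting error is wider. Binomial intervals cover counting error only.

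The members and lists were chosen with earlier results of these data known. All members are named. Of each other list, up to 4 genes are named, those with the largest absolute log2 fold change for MmC without GDF11 among genes called in both MmC comparisons. Further family genes are all named, and the 3 nearest genes by pattern were found for members of at least 1 CPM. Any other gene is named as chosen after its values were seen or as a marker or label check.

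Replicate numbers were checked for pairing by correlating deviations from group means across genes. For MmC without GDF11 the lowest correlation was 0.113 and in senescent MSCs with and without GDF11 it was 0.448, so numbers were taken to pair these libraries. It was 0.0293 for MmC with GDF11 and 0.0982 for GDF11 in young MSCs, where they were not. The values 0.113 and 0.0982 lie close together and no cutoff is given, so this division is a judgement. Unless a block is named, errors and p-values of all comparisons come from the fit without pairing.

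Alternatives were scaling by RLE or upper quartile, a filter of 10 counts per library or none, a fit to the compared groups alone, the replicate number as a block, limma-voom (limma 3.58.1), DESeq2 1.42.0, and leaving out each library or replicate number, and a prior count of 2 in the fit. Counts of the pathway lists without replicate 1 were added after seeing the data.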

Additional observations from a re-analysis of the deposited data

Results flagged for a closer look

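Within each group of 4 libraries, the highest or lowest value was compared with its gap to the next one by Dixon's criterion on log2 CPM. Of 128 groups tested over the named genes 21 held such a library, 8 of them groups of members. For a single group the criterion is met by chance in about 1 of 20 cases. The genes were measured in the same 16 libraries and are not independent, so the 21 groups are no measure of an excess over chance. Replicate 1 was the library in 16 of the 21, 10 of them in MmC+ groups.

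AREG in replicate 1 was low in MmC-/GDF11- (0.923 CPM, others 1.73 to 1.96), in MmC+/GDF11- (11.5 CPM, others 76.5 to 98.8) and in MmC+/GDF11+ (11.8 CPM, others 69.3 to 91.6). Replicate 1 was also low for EREG in MmC+/GDF11+ (50.7 CPM, others 259 to 346) and for NRG1 in MmC+/GDF11- (31.2 CPM, others 55.7 to 62.3). ERBB2 was high in replicate 1 of MmC+/GDF11+ (92.2 CPM, others 54.6 to 58.7) and in replicate 2 of MmC-/GDF11+ (109 CPM, others 88.6 to 91.6). EGFR was high in replicate 4 of MmC-/GDF11+ (222.8 CPM, others 170 to 173).

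Among the pathway genes, replicate 1 of MmC+/GDF11- was low for SPRY4 (12.6 CPM, others 26.9 to 29.1), EGR2 (2.41 CPM, others 10.5 to 11.6) and PHLDA1 (139.9 CPM, others 464 to 549). In MmC+/GDF11+ it was low for SPRY4 (11.4 CPM, others 25.9 to 29.5) and PHLDA1 (131 CPM, others 459 to 573). In MmC-/GDF11- it was low for NRAS (78.3 CPM), MAP2K1 (71.01 CPM) and ETV4 (3.76 CPM) and high for ADAM19 (33.5 CPM), and in MmC-/GDF11+ low for ERRFI1 (49.1 CPM). Replicate 2 was low for ADAM12 (195 CPM) and high for MAPK3 (205 CPM) in MmC-/GDF11- and high for MAP2K1 in MmC+/GDF11- (137 CPM). What sets these libraries apart was not tested.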

How the results depend on the processing

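AREG, EREG, HBEGF, EPGN and ERBB3 kept their direction and call in all 21 alternatives of both MmC comparisons, while NRG1, TGFA, BTC, EGFR and ERBB2 changed side in the leave-out settings given with them above. Leaving out libraries or replicate numbers gave 5490 to 10004 genes called for MmC without GDF11, 5505 to 10164 for MmC with GDF11, and 5 to 9 members called for MmC with GDF11, the lowest values coming without replicate 3, and 6 to 10 members for MmC without GDF11. For GDF11 in young MSCs these settings gave 0 or 1 gene, and DESeq2 gave 1 gene, none of them a member. With the replicate number as a block, 9 and 8 members were called for MmC without and with GDF11, and 11066 and 11267 genes, and the block changed no member's call. Of the other genes for which the alternatives were read, the block changed the calls of ADAM17 and ADAM10. The marker and label check genes, the neighbours on chromosome 4, SPRY1 and HRAS were not among them. No called value of a member changed sign. Among values that were not called, the sign changed in 27 alternatives for GDF11 in young MSCs, 31 for GDF11 in senescent MSCs and 39 for the interaction over the 10 members, and in 1 for MmC with GDF11, which was TGFA. Among the family genes depth limited TGFA, NRG3 and NRG4 most. With 4 libraries per group small effects of GDF11 on AREG, EREG and HBEGF were not detectable in the fit without a block.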
